A study of Homo sapiens with 38 samples.

Results

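Heat shock proteins and their co-chaperones were followed as a set of 38 listed gene symbols, chosen by name out of 24463 gene symbols present in the tables of the study. Sorted by role, the 38 members were 7 proteins of the HSP70 family, 3 of the HSP110 family, 2 HSP90 proteins, 3 small heat shock proteins, 8 J-domain co-chaperones, 4 BAG domain proteins, 4 co-chaperones of HSP90 and 2 heat shock transcription factors. The other members were 3 mitochondrial chaperones (HSPA9, HSPD1 and HSPE1) and 2 of the endoplasmic reticulum (HSPA13 and SERPINH1), so the working name of a cytosolic set did not hold for these 5.

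The study measured transcripts by RNA sequencing in T47D, T47D-TR and BT-549 cells, all established lines from human breast cancer; the labels give 19 groups of 2 libraries. The 3 lines were exposed for 48 h to 2.5 uM of MS177, a degrader (PROTAC) aimed at the histone methyltransferase EZH2, of MS177-N1 or MS177-N2, its negative controls, or of C24, which inhibits the enzymatic activity of EZH2. The matching vehicle was 0.125% DMSO. T47D-TR cells alone were also exposed for 30 h to 2.5 uM of the EZH2 degrader MS8815, of its negative control MS8815-N, or of the inhibitor EPZ-6438, against 0.05% DMSO. A PROTAC binds its target and a ubiquitin ligase together, so that the target is degraded as a protein, which transcript levels do not read. Each compound was given at 1 dose for 1 time, the suffix of T47D-TR is not explained by the labels, and whether the 2 libraries of a group came from separate cultures is not stated, so the p-values measure only the spread between these libraries, which may be technical.

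Heat shock proteins bind unfolded protein chains. HSP70 proteins take up a chain handed over by a J-domain protein, which starts ATP hydrolysis, and release it when a BAG domain or HSP110 protein exchanges the nucleotide. HSP90 with its co-chaperones matures client proteins such as kinases and steroid hormone receptors, among them the estrogen receptor of luminal breast cancer cells. When unfolded protein accumulates in the cytosol, heat shock factor 1 (HSF1) is released from chaperones, binds repeats of the letters GAA in the promoters of inducible genes, and raises their transcription.

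Some libraries stood apart, and the values that rest on them are given per library below. Across genes, the Pearson correlation of log2(normalized count + 1) between the 2 libraries of a group was 0.917 for MS8815, 0.935 for EPZ-6438 and 0.770 for MS8815-N in T47D-TR, and 0.913 for MS177 in T47D. In replicate 2 of MS8815-N, 44.3% of genes lay at the lowest value of the table. The table of MS177-N1 in T47D held a column that equalled replicate 2 of MS177-N2 at 100% of 17724 shared genes, so MS177-N1 had 1 library in that line. Reads over the listed genes were 32.1 to 49.9 M per library in T47D and BT-549, and the depth in T47D-TR is unknown. In DMSO the luminal marker KRT8 lay at 90779 to 203025 normalized counts in T47D and T47D-TR and at 356 to 403 in BT-549. There the mesenchymal marker VIM reached 76622 to 81322. Luminal markers did not all go this way: in BT-549 KRT18 was at 18198 to 20271, GATA3 at 5961 to 6524 and CDH1 at 606 to 677. ESR1, PGR, FOXA1 and KRT19 were at most at 96.1 there, and EPCAM was not listed.

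Promoter windows of RefSeq (GRCh38.p14, 250 bases before to 50 after a start) were found for 34 members. A pair of GAA units facing each other, spelled GAANNTTC or TTCNNGAA, was present in a window of 21 of these 34 genes, against 16.2% of all 27305 genes with a window. Both spellings read the same on either strand. Arrays with 1 more unit, spelled GAANNTTCNNGAA or TTCNNGAANNTTC, which contain the shorter motifs and are each the reverse complement of the other, were present in 9 of the 34 genes and in 0.608% of all genes. Of single windows, 13.5% held a pair and 0.490% an array of the longer kind. A match is a description of the letters only. Among the 13 members called higher with MS8815 (below), 10 held a pair and 3 a longer array, and among the 21 others 11 and 6. Bases before the start are shown for 6 that rose, all with a match, because these windows differ in how many units they carry. The other members called higher, DNAJB2, DNAJB4, HSPA9, HSPA13, HSPB8, HSPD1 and HSPH1, are not shown. Only bases that GENCODE 29 annotates as UTR of no transcript are printed, 5′ to 3′, with the matched letters in capitals.
HSPA6 (chr1:161524290-161524539, plus strand): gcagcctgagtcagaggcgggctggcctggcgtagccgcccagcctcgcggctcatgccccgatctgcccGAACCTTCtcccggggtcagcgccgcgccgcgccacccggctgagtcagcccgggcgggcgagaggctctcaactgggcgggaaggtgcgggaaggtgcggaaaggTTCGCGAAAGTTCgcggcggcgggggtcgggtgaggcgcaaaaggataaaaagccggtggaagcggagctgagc
HSPA1A (chr6:31815293-31815463, plus strand): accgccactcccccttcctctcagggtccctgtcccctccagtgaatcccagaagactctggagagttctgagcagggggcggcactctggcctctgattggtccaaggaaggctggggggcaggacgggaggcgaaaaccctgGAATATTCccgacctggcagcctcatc
HSPA1B (chr6:31827488-31827734, plus strand): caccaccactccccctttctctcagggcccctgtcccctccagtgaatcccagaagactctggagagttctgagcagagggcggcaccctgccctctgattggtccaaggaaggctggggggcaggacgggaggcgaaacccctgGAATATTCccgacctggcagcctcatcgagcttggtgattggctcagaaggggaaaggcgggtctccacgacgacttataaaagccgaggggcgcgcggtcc
HSPA8 (chr11:123062353-123062386, minus strand): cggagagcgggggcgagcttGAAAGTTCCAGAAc
DNAJB1 (chr19:14518421-14518647, minus strand): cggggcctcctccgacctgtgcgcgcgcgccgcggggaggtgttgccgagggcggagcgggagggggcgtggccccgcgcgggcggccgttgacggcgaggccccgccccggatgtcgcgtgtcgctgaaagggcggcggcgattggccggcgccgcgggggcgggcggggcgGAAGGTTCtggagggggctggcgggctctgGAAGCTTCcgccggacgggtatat
DNAJA4 (chr15:78264314-78264543, plus strand): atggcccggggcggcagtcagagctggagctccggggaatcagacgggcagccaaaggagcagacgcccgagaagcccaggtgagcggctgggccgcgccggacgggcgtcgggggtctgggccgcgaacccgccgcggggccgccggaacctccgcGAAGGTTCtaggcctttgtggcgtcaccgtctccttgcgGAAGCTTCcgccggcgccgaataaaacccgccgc
HSPA6 carried a pair and an array of the longer kind, HSPA1A and HSPA1B each carried a single pair with the same letters, and DNAJB1 and DNAJA4 each carried 2 pairs, again with the same letters in the same order. The short stretch of HSPA8 held an array of the longer kind. Its window held 1 more, and the window of HSP90AA1 held 1, in stretches that are also annotated as UTR and are not shown. DNAJB2, HSPA13 and HSPH1, also called higher, had no match in their windows.

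MS8815 raised heat shock genes of 6 of the 10 roles in T47D-TR. Of 36 members tested, 13 rose and 0 fell (limma, adjusted p under 0.05), where 6.25% of the 12067 genes tested changed, 3.27% rising and 2.98% falling. The median log2 difference of the tested members was 1.20, and that of all tested genes was 0.00399. Both MS8815 libraries lay above both DMSO libraries for 31 of the 36, and below them for 1, FKBP4, while 30.7% and 32% of all genes did so. Together the members made up 14.9% and 4.92% of all normalized counts with MS8815 and 1.38% and 1.36% in DMSO. In the MS8815 library with 14.9%, HSP90AA1 alone made up 12.4%. In bulk RNA, a change in every cell and a larger change in some of the cells cannot be told apart. Levels are normalized counts, back-calculated from the deposited log2 values. A log2 difference from DMSO (± SE) is taken on the deposited scale itself, which compresses genes of low level.

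Of the 6 HSP70 members tested, 4 rose. HSPA6, a strictly inducible HSP70 gene (hg38 chromosome 1, 161524540 to 161526910), was at 9.30 and 9.20 normalized counts in the DMSO libraries and at 1413 and 1611 with MS8815. It was almost silent in vehicle, and the mean rose 164-fold (log2 difference 4.49 ± 0.17, limma adjusted p = 0.0129). Its DMSO libraries lay within 1 unit of the lowest value, so HSPA6 passed the filter only through the MS8815 libraries. Its test is therefore no separate evidence of the rise. HSPA1A, the main inducible HSP70 gene (chromosome 6, 31815464 to 31817946), went from 2898 and 2612 to 34266 and 45575, 14.5-fold (log2 difference 3.80 ± 0.26, limma adjusted p = 0.0203). Its neighbour HSPA1B, which encodes the same protein (chromosome 6, 31827735 to 31830255), went from 1345 and 1211 to 8599 and 17312, 10.1-fold (limma adjusted p = 0.0338). The transcripts of HSPA1A and HSPA1B are nearly identical, so the split of reads between them is uncertain, but in both the groups were far apart. HSPA8, which encodes the constitutive HSP70 protein, went from 25650.3 and 22063 to 102229 and 90551, 4.04-fold (limma adjusted p = 0.0355). The log2 differences of HSPA14 (0.54) and HSPA2 (-0.14) did not pass, and HSPA1L, the neighbour of HSPA1A in the opposite direction, at 8.51 and 7.88 in vehicle, lay below the filter.

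Among the HSP110 nucleotide exchange factors, HSPH1 (chromosome 13, 31134974 to 31162388) went from 699 and 603 normalized counts to 7593 and 6052, 10.5-fold (log2 difference 3.22 ± 0.22, limma adjusted p = 0.0203). Its groups did not overlap, whereas the relatives HSPA4 (log2 difference 0.64, adjusted p = 0.106) and HSPA4L (0.52, adjusted p = 0.42) did not pass. Neither HSP90 gene passed. HSP90AB1, the constitutive HSP90 gene, went from 21396 and 21614 to 53065 and 53119, a ratio of 2.47 with libraries that lay close together (limma adjusted p = 0.0519). HSP90AA1, the inducible HSP90 gene, was at 26514 and 26318 in vehicle and at 1664192 and 165379.6 with MS8815, 63.0 and 6.26 times the DMSO mean (limma adjusted p = 0.087). Both libraries lay above vehicle, but they differed from each other by far more than the vehicle libraries did.

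**Figure D1:**
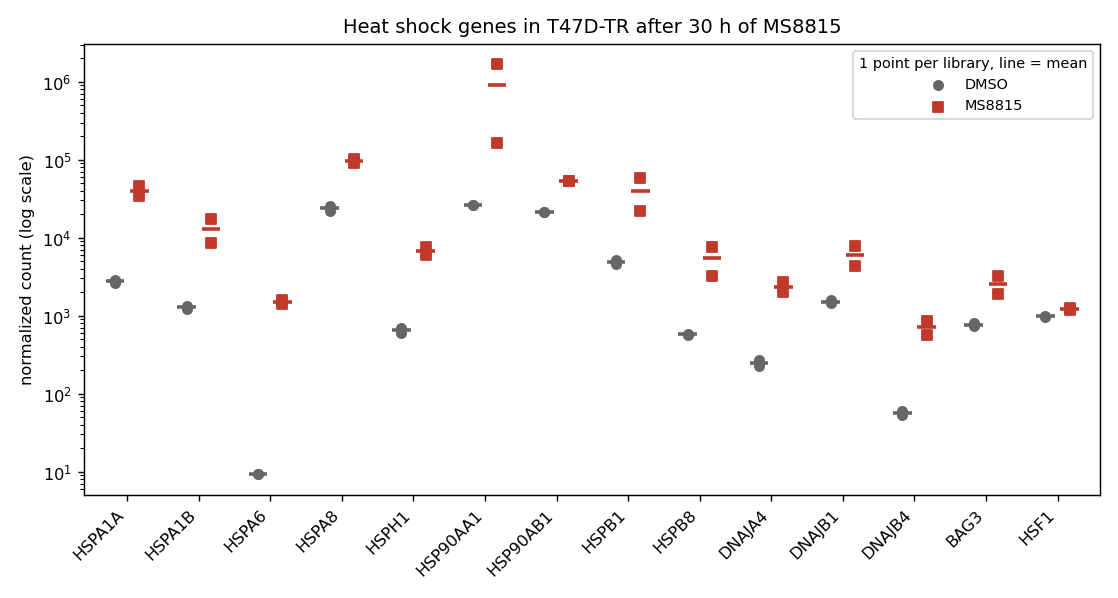
Normalized counts (log axis) of 14 members in the 2 DMSO and 2 MS8815 libraries of T47D-TR at 30 h, with 1 point per library and a line at the mean. HSPA6 rises from about the bottom of the axis to above 1000, HSP90AA1 splits into 1664192 and 165379.6, and HSF1 moves least.

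Small heat shock proteins hold unfolded chains without ATP. HSPB8, which works with BAG3 to pass damaged proteins to autophagy, went from 588 and 566 to 3209 and 7614, 9.38-fold (limma adjusted p = 0.0403). HSPB1 (HSP27) was at 5243 and 4655 in vehicle and 58481 and 22092 with MS8815, just outside the threshold (log2 difference 2.84 ± 0.51, limma adjusted p = 0.0505). CRYAB did not pass (0.35, adjusted p = 0.244).

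Of the 7 J-domain members tested, 4 rose. DNAJB4 went from 60.7 and 53.7 to 570.1 and 850.1, 12.4-fold (limma adjusted p = 0.0307), and DNAJA4 from 227 and 268 to 2011 and 2679, 9.49-fold (adjusted p = 0.0231). DNAJB1, the main partner of inducible HSP70, went from 1574 and 1452 to 4320.4 and 7834, 4.02-fold (limma adjusted p = 0.0497), at the edge of the threshold. DNAJB2, a co-chaperone that binds ubiquitin, went from 1046 and 931 to 2656 and 2731, 2.73-fold (adjusted p = 0.0377). The groups of these 4 genes did not overlap. DNAJA1, DNAJA2 and DNAJB6 had log2 differences of 0.92, 0.42 and 0.31 and did not pass, and DNAJB5 lay below the filter.

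No BAG protein, HSP90 co-chaperone or heat shock factor passed. BAG3, the stress-inducible BAG protein, was at 739 and 797 in vehicle and 1899.6 and 3220.0 with MS8815 (log2 difference 1.58 ± 0.30, limma adjusted p = 0.0541). BAG2, BAG1 and BAG5 followed with 1.14, 0.51 and 0.04. The HSP90 co-chaperones STIP1, FKBP4, AHSA1 and CHORDC1 lay between -0.14 and 0.51. HSF1, the factor of the general heat shock response, was at 969.7 and 988 in vehicle and 1166 and 1242 with MS8815 (0.28 ± 0.18, limma adjusted p = 0.353). HSF2 had 0.91 (limma adjusted p = 0.125). Whether HSF1 had a part in the rises with MS8815 was not tested.

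Organelle chaperones moved too. Mitochondrial HSPA9 rose 3.45-fold, from 2196 and 2424 to 9183 and 6748 (limma adjusted p = 0.0381), and HSPD1 rose 2.47-fold, from 6558 and 6493 to 16396 and 15875 (adjusted p = 0.0455). HSPE1, which caps the HSPD1 barrel, was at 4475 and 1721 against 1183 and 1036 and did not pass (adjusted p = 0.165). HSPD1 and HSPE1 lie head to head, and whether the counting used strand is not given in the sources used here. In the endoplasmic reticulum HSPA13 rose 2.82-fold (adjusted p = 0.0485), and the collagen chaperone SERPINH1 had a log2 difference of 0.69 (adjusted p = 0.135).

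The count of 13 depended on single libraries and on the fit. It was 2 with all 30 h libraries in 1 fit, where 12 of 13925 genes passed in all. It rose without either MS8815 library and fell without DMSO replicate 3 or 4, and the number of all genes called likewise moved both up and down. HSPA1A and HSPH1 passed under all 8 alternatives run, and each of the other 11 lost its call under at least 1.

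HSP90AA1 differed between replicates in more than 1 group, together with DNAJB2, BAG1 and HSPB1. In replicate 1 of MS8815 it took 12.4% of all normalized counts. In the same library the ribosomal RNA-like genes CH507-513H4.3, CH507-513H4.4 and CH507-513H4.6 were at 95704, 95726 and 94834 normalized counts, against 8537, 8566 and 8544 in replicate 2 and 3310 to 4267 in DMSO. With EPZ-6438, HSP90AA1 was at 28964 and 124729 in replicates 1 and 2, BAG1 at 599.8 and 2300.1 and DNAJB2 at 1132 and 2305, against 32542 and 32415, 767 and 682 and 1228 and 1097 in DMSO. Replicate 1 of EPZ-6438 lay near vehicle and replicate 2 above it for these 3 genes. With C24 in T47D-TR, BAG1 was likewise at 829 and 2241 and DNAJB2 at 1245 and 2217. With MS177 in T47D, replicate 1 was the high one: HSP90AA1 was at 117569.9 and 34949.9, HSPB1 at 125963 and 29308, DNAJB2 at 10590.5 and 3969 and BAG1 at 5659.7 and 2261. The part of these library differences in the results was not tested.

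**Figure D2:**
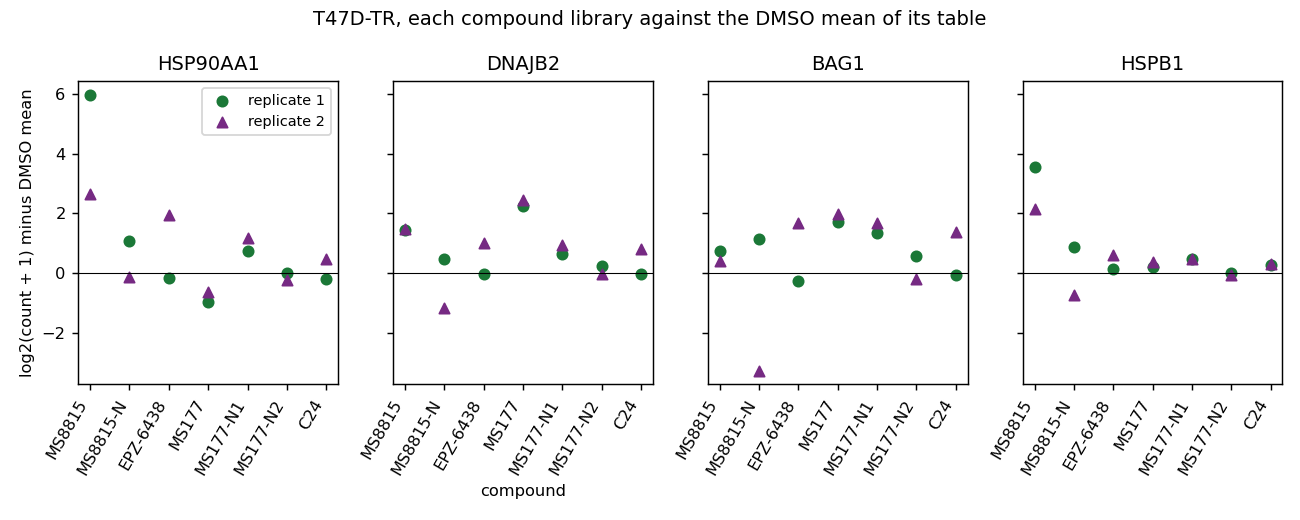
Each T47D-TR compound library as log2(normalized count + 1) minus the mean of the DMSO libraries in its own table, for HSP90AA1, DNAJB2, BAG1 and HSPB1. Circles are replicate 1 and triangles replicate 2, which lie apart for HSP90AA1 with MS8815 and EPZ-6438 and for BAG1 with MS8815-N, EPZ-6438 and C24.

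MS177 gave a mixed pattern in T47D-TR. Of 35 members tested, 11 rose and 10 fell (limma), where 62.5% of the 10425 genes tested changed, 31.1% rising and 31.4% falling. The members' count was near that background. The median log2 difference of the members was -0.12, against -0.00343 for all genes tested. HSPA1L, HSPA2 and DNAJB5 lay below the filter, and the 14 members that did not pass lay between -0.34 and 0.28.

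The inducible HSP70 genes went different ways with MS177. HSPA1A fell from 8967 and 8434 to 4915 and 5482 normalized counts, 1.67-fold (log2 difference -0.70 ± 0.11, limma adjusted p = 0.00125), and HSPA1B fell from 4547 and 4790.1 to 3287 and 2891, 1.51-fold (adjusted p = 0.00306). HSPA6 rose from 11.8 and 13.2 to 119 and 120.3, 9.57-fold in counts but only 0.71 ± 0.06 on the compressed deposited scale (limma adjusted p = 9.64e-05). HSPA6 passed the filter only through the MS177 libraries, so its test is no separate evidence of the rise. The groups did not overlap in HSPA1A, HSPA1B and HSPA6, nor in most other members tested, so this sets none of them apart. HSPA8 was at 50763 and 48802 in vehicle and 39328 and 39341 with MS177 (adjusted p = 0.0662), and HSPH1 at 2330.3 and 2331 and 2555 and 2751 (adjusted p = 0.153). Of the HSP110 relatives HSPA4 rose 1.95-fold (adjusted p = 0.000356) and HSPA4L fell 1.63-fold (adjusted p = 0.0037).

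Both HSP90 genes and 2 of their 4 co-chaperones fell with MS177. HSP90AA1 fell from 67762 and 57438 to 31595 and 39885, 1.75-fold (limma adjusted p = 0.00601), and HSP90AB1 from 34752 and 30824 to 21914 and 23671, 1.44-fold (adjusted p = 0.0138). FKBP4, an immunophilin that brings steroid receptors to HSP90, fell from 11629 and 10749 to 5439.7 and 5451, 2.05-fold (limma adjusted p = 0.000248). STIP1, which links HSP70 to HSP90, fell from 5407 and 6206 to 3566 and 3046, 1.76-fold (adjusted p = 0.00138). AHSA1 and CHORDC1 did not pass (-0.22 and 0.12).

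The largest rises on the deposited scale belonged to a J-domain protein, an endoplasmic reticulum HSP70, a small heat shock protein, a BAG protein and a mitochondrial HSP70. DNAJB2 rose from 1253 and 1096 to 5582 and 6462, 5.13-fold (log2 difference 2.03 ± 0.11, limma adjusted p = 1.53e-05). HSPA13 rose from 931 and 823 to 3596 and 3404, 3.99-fold, and HSPB8 from 903 and 873 to 3582 and 3352, 3.90-fold (adjusted p = 2e-05 and 1.7e-05, limma). BAG1, which ties HSP70 to the proteasome, rose from 1014 and 629.7 to 2643 and 3144, 3.52-fold (adjusted p = 0.000297), and HSPA9 from 4908 and 5605 to 15155 and 13804, 2.75-fold (adjusted p = 9.38e-05). All 5 genes had both MS177 libraries above both DMSO libraries, but groups without overlap were the rule among the members tested here. CRYAB rose 4.13-fold in counts but only 0.65 on the compressed deposited scale. Like HSPA6, it passed the filter only through its MS177 libraries, so neither gene could be tested with 1 of these libraries left out. DNAJB4 rose 2.18-fold, DNAJA2 1.61-fold and HSF1 1.40-fold, the last from 1585 and 1538 to 2242 and 2139.8 (limma adjusted p = 0.00541). DNAJB1 fell from 3410.4 and 3215 to 2255 and 2317, 1.45-fold (adjusted p = 0.00328), and DNAJA4 and SERPINH1 fell 1.34-fold and 1.22-fold (adjusted p = 0.0449 and 0.0415). BAG3, at 1274 and 1451 in vehicle and 1202 and 1035 with MS177, and HSPB1, at 6236 and 4877 and 6392 and 7123, did not pass (adjusted p = 0.0958 and 0.12). Without MS177 replicate 1 the count of 21 became 14; HSF1, HSP90AA1, HSP90AB1, CRYAB, DNAJA4 and SERPINH1 each lost the call under at least 1 alternative, and the other 15 kept it under all that were run.

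The responses to the 2 degraders were then set against each other in T47D-TR, each within its own table and against its own vehicle. They differ in compound, in time (30 h for MS8815, 48 h for MS177) and in vehicle (0.05% and 0.125% DMSO), which cannot be told apart, and the tables were normalized separately. On log2(normalized count + 1), the MS8815 response was higher than the MS177 response for 17 of 38 members and lower for 1 (limma), where 9.74% of all genes differed, 5.63% of the 14676 higher and 4.12% lower. The median difference of the members was 1.01, against 0.0562 over all genes tested.

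Of the 8 largest differences past the threshold, HSP90AA1 led with 5.13 and the widest interval (2.16 to 8.09, limma adjusted p = 0.048), its MS8815 libraries lying far apart. HSPA1A followed with 4.59 (3.98 to 5.19, limma adjusted p = 0.00158), having risen with MS8815 and fallen with MS177. HSPA6, raised by both compounds, differed by 4.04 (3.27 to 4.81, limma adjusted p = 0.00244). HSPA1B differed by 3.85, DNAJA4 by 3.64, HSPH1 by 3.20, HSPB1 by 2.57 and DNAJB1 by 2.48 (limma adjusted p = 0.0055, 0.00225, 0.00176, 0.0368 and 0.0118). Smaller differences past the threshold were those of DNAJB4 (2.46), HSPA8 (2.36), BAG3 (1.97), HSP90AB1 (1.83), BAG2 (1.82), DNAJA1 (1.09), HSPD1 (1.01), SERPINH1 (1.01) and FKBP4 (0.90). DNAJB2 responded more to MS177, with a difference of -0.91 (interval -1.43 to -0.39, limma adjusted p = 0.0455).

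By the calls in each table, 4 members rose with MS8815 and fell with MS177 (HSPA1A, HSPA1B, DNAJA4 and DNAJB1), and 6 rose with both (HSPA6, HSPB8, DNAJB2, DNAJB4, HSPA9 and HSPA13). HSPA6 passed the filter of both comparisons with DMSO only through its compound libraries. For HSPA9, HSPA13 and HSPB8 the difference between the responses did not pass, with intervals of -0.32 to 0.94, -1.17 to 0.12 and -0.04 to 2.31 on the log2 scale. The count of 18 fell when a DMSO or MS177 library was left out and rose without either MS8815 library. The number of all genes that differed likewise moved both up and down across these fits. HSPA1A, HSPA1B, HSPA6, HSPA8, HSPH1 and DNAJA4 passed under all 12 alternatives run.

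**Figure D3:**
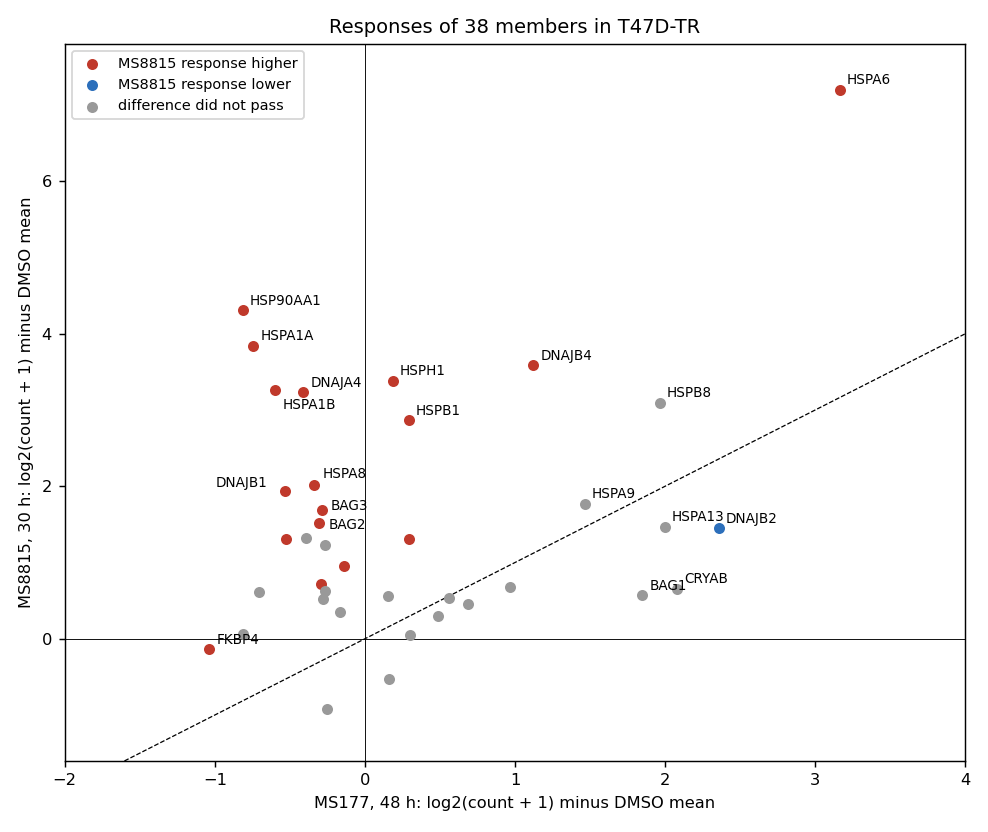
Responses of the 38 members in T47D-TR as log2(normalized count + 1) minus the DMSO mean, MS177 at 48 h on the horizontal axis and MS8815 at 30 h on the vertical axis, with equal responses on the dashed line. Red members, for which the MS8815 response was higher by limma, lie above the line, and DNAJB2 (blue) lies below it.

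MS177 was also given to BT-549, a mesenchymal line, at the same dose and time. There 35 of the 38 members were in the tables analysed here, without HSPA6, CRYAB and DNAJA4, and 34 were tested. MS177 lowered 10 and raised 3 of them (limma), where 27.3% of 14474 genes changed, 14.4% falling and 12.9% rising. The median log2 difference was -0.21 for the members and 0.0128 for all genes. HSPB8, at 11.6 and 3.12 normalized counts in vehicle, lay below the filter, and the 21 members that did not pass lay between -0.56 and 0.51.

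DNAJB5 fell most, from 1195 and 1212 to 362 and 386 normalized counts, 3.22-fold (log2 difference -1.47 ± 0.10, limma adjusted p = 0.00187). HSPA1A fell from 17290.0 and 16958 to 7261 and 7779, 2.28-fold (adjusted p = 0.00358), HSPA2 from 672 and 693 to 275 and 287 (adjusted p = 0.0037) and HSPA1B from 15399 and 15305 to 8429.8 and 7771 (adjusted p = 0.00621). In these 4 genes every MS177 library lay below every DMSO library, but groups without overlap were common among the members tested in BT-549. HSPB1, DNAJB1, DNAJB4, BAG3, STIP1 and SERPINH1 fell by between 1.38-fold and 1.85-fold. HSPA9 rose from 24263 and 23907 to 55227 and 54112, 2.27-fold (limma adjusted p = 0.00456), HSPA13 rose 1.50-fold and HSF1 1.34-fold (adjusted p = 0.0196 and 0.0443). The count of 13 was 5 without DMSO replicate 1 and 7 without DMSO replicate 2.

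In T47D no member passed (limma, 0 of 38), and 0% of 18146 genes passed in all. At an unadjusted p under 0.05 there were 8 members. The share of all genes at that threshold was not counted, so the 8 are no result about the members. The smallest limma adjusted p among the members was 0.133. HSPA8 was at 71793 and 73395 in vehicle and 30727 and 29452 with MS177, HSPA1A at 6143 and 6391 and 3243 and 3263, and HSPA9 at 19393 and 18968 and 45535 and 50485. These 3 genes had close replicates, while the replicates of BAG3, at 1069 and 2579, and HSPA13, at 2183 and 4186, lay far apart. With all T47D libraries in 1 fit the count of members was 10, given here without the share of all genes and not read as a result about the members. Without either MS177 library the number of members called rose. Across the fits without 1 library the number of all genes called rose too, so these fits were not read as a result about the members.

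The difference of the MS177 response between T47D-TR and BT-549 was tested on log2(normalized count + 1). It was higher in T47D-TR for 10 of 35 members and lower for 3 (limma), where 30.5% of 12887 genes differed, 14.2% higher and 16.3% lower. DNAJB2 differed by 2.28 (interval 1.81 to 2.75, limma adjusted p = 0.000257), DNAJB4 by 1.81 (1.39 to 2.22, adjusted p = 0.00038) and HSPA13 by 1.41 (1.06 to 1.76, adjusted p = 0.000542). DNAJB4 rose in T47D-TR and fell in BT-549, and DNAJB2 rose in T47D-TR and was at 2072 and 1708 in vehicle and 1846 and 2125 with MS177 in BT-549. FKBP4 had the lowest value, -1.05 (-1.36 to -0.74, limma adjusted p = 0.00122), at 7208 and 6867 and 6907 and 7312 in BT-549. HSPA1A, HSPA1B and HSPA9 did not pass in this test after adjustment, with unadjusted intervals of 0.11 to 0.78, -0.02 to 0.67 and -0.08 to 0.64. The count of 13 was 7 without MS177 replicate 2 in T47D-TR and 8 without MS177 replicate 1 or DMSO replicate 2 of T47D-TR or DMSO replicate 2 of BT-549.

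**Figure D4:**
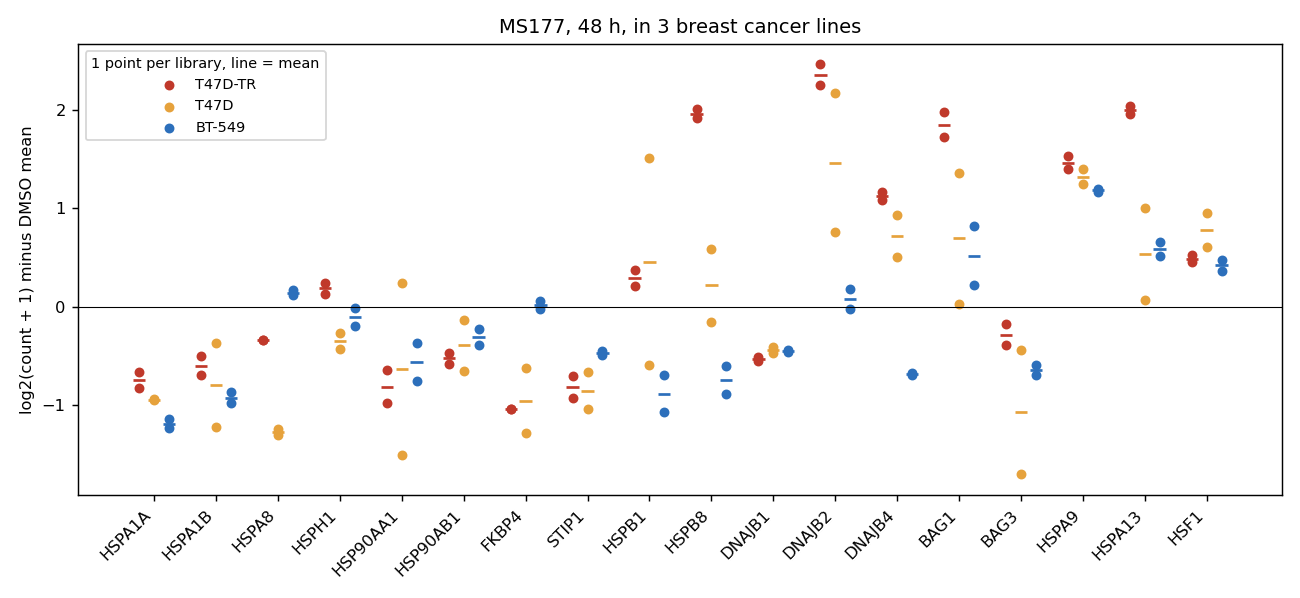
MS177 libraries of T47D-TR (red), T47D (orange) and BT-549 (blue) at 48 h as log2(normalized count + 1) minus the DMSO mean of the same table, with 1 point per library and a line at the mean, for 18 members. HSPA9 and HSF1 lie above 0 and HSPA1A, HSPA1B, STIP1 and DNAJB1 below 0 in all libraries shown, and the T47D libraries spread widely for HSP90AA1, HSPB1, DNAJB2 and BAG1.

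Compounds were next compared with each other at the same dose and time, in 11 pairs. MS8815 stood above its negative control MS8815-N for 2 of 37 members, HSPA1A and HSPH1 (limma), where 0.0575% of 13925 genes differed. Over all genes tested the median log2 difference of this pair was 0.52, and 9078 of the 13925 lay above 0, against a median of 1.48 for the members. Both genes also passed with each library centred on its median. HSPA1A differed by 3.84 (interval 3.15 to 4.54, limma adjusted p = 0.022) and HSPH1 by 3.19 (2.50 to 3.88, adjusted p = 0.022) on log2(normalized count + 1). In the table of MS8815-N, HSPA1A was at 1145 and 973 with MS8815-N and 1099 and 1008 in DMSO, and HSPH1 at 300.2 and 302 and 281 and 247. HSPA8, HSPA1B, HSPB8 and DNAJA4 did not pass (adjusted p = 0.069), with intervals of 1.53 to 2.86, 2.26 to 4.23, 2.37 to 4.41 and 2.13 to 3.98. In this pair HSPA6 had an interval of 4.72 to 12.27 (adjusted p = 0.143), with 1 MS8815-N library listed at 0. HSPA1A and HSPH1 both lost the call when any 1 library of DMSO, MS8815 or EPZ-6438 was left out. Without either MS8815-N library the number of members called rose, and across the fits without 1 library that of all genes called varied widely as well.

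MS8815 stood above EPZ-6438, which inhibits the enzymatic activity of EZH2, for 4 of 37 members (limma), where 0.108% of genes differed and the median of all genes was -0.0125. These were HSPA1A (3.76, interval 3.06 to 4.45, limma adjusted p = 0.0204), HSPH1 (3.30, adjusted p = 0.0204), DNAJA4 (3.44, adjusted p = 0.044) and HSPA1B (3.55, adjusted p = 0.0483). With EPZ-6438 HSPA1A was at 3112 and 3943 and its DMSO at 3469 and 3138, and HSPA6 at 19.7 and 39.8 and 10.9 and 10.8. The interval of the difference in HSPA6 was 2.15 to 9.70 (adjusted p = 0.316). All 4 lost the call when any 1 library of DMSO, MS8815 or EPZ-6438 was left out. Without either MS8815-N library the number of members called rose, and across the fits without 1 library that of all genes called varied too.

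Against MS177-N1, MS177-N2 and C24, MS177 changed 22, 22 and 21 of 38 members in T47D-TR (50.8%, 46.4% and 48.1% of 15015 genes changed), 18, 18 and 16 of 34 in BT-549 (33.1%, 37.2% and 35.7% of 16345 genes) and 4, 10 and 9 of 38 in T47D (8.6%, 16.7% and 19.3% of 17341 genes), all by limma. In that order of compounds, HSPA1A was lower with MS177 by log2 differences of -0.91, -0.82 and -0.93 in T47D-TR, -1.12, -1.30 and -1.32 in BT-549, and -0.88, -1.39 and -0.97 in T47D. HSPA9 was higher by 1.81, 1.53 and 1.57 in T47D-TR, 1.23, 1.27 and 1.24 in BT-549, and 1.33, 1.39 and 1.40 in T47D. For both genes these differences passed the threshold in T47D-TR and BT-549, and in T47D they passed with the libraries of the line fitted together. The 3 comparisons of a line share the MS177 libraries. MS177-N1 had 1 library in T47D, where HSPA1A and HSPA9 passed against it under 5 of 8 alternatives and no member passed with the compared libraries and their DMSO alone. In T47D the number of all genes called moved both up and down when 1 library was left out. Counts of members against MS177-N2 and C24 fell without either library of that compound. For all 3 compounds the T47D counts of members rose without either MS177 library and fell without either DMSO library. In BT-549 they were 11, 11 and 10 without MS177 replicate 2, 11 without MS177-N1 replicate 1 and 11 without MS177-N2 replicate 2, and in T47D-TR 14 against MS177-N2 without MS177 replicate 2. HSPB8 was higher with MS177 in T47D-TR by 2.42, 2.10 and 2.01, HSPA13 by 2.32, 1.96 and 2.25, and DNAJB2 by 1.57, 2.26 and 1.98.

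Against DMSO, the control compounds and inhibitors gave few calls. MS177-N1 in T47D-TR raised 5 and lowered 3 of 33 members (limma), where 27.5% of 10578 genes changed, 14.9% rising and 12.6% falling. BAG1 rose 2.80-fold from 840.0 and 517 to 1687 and 2112 (limma adjusted p = 0.00311), HSP90AA1 1.96-fold from 55221 and 46396 to 84944 and 114584 (adjusted p = 0.00997) and DNAJB2 1.73-fold from 1087 and 943 to 1572 and 1931 (adjusted p = 0.0067). HSPB1 rose 1.38-fold and HSPE1 1.41-fold, while STIP1, BAG3 and BAG5 fell 1.38-fold, 1.44-fold and 1.37-fold. BAG5 passed under 0 of 9 alternatives (limma adjusted p = 0.0557 to 0.233), STIP1 and HSPB1 under 2 of 9, and HSPE1 under 3. This count of 8 was 0 with all libraries of the line in 1 fit, 1 without DMSO replicate 2 or without MS177-N1 replicate 2, and 5 without MS177-N1 replicate 1. In the other 10 comparisons of controls and inhibitors no member passed by limma. Of all genes, 3.42% passed with MS177-N2, 0.134% with C24 and 0% with MS177-N1 in BT-549, 0.847% with C24, 0.179% with MS177-N1 and 0% with MS177-N2 in T47D, and 0.175% with MS177-N2, 0.00851% with C24 and 0% with MS8815-N and EPZ-6438 in T47D-TR. At an unadjusted p under 0.05 these comparisons held 0 to 7 members, the most for MS177-N2 in T47D. The share of all genes at that threshold was not counted, so these counts are no result about the members. When 1 library was left out, members passed in some fits for C24 in each line, MS177-N2 in T47D and BT-549, EPZ-6438 and MS8815-N. For each of these comparisons the number of all genes called rose in some fits as well.

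**Figure D5:**
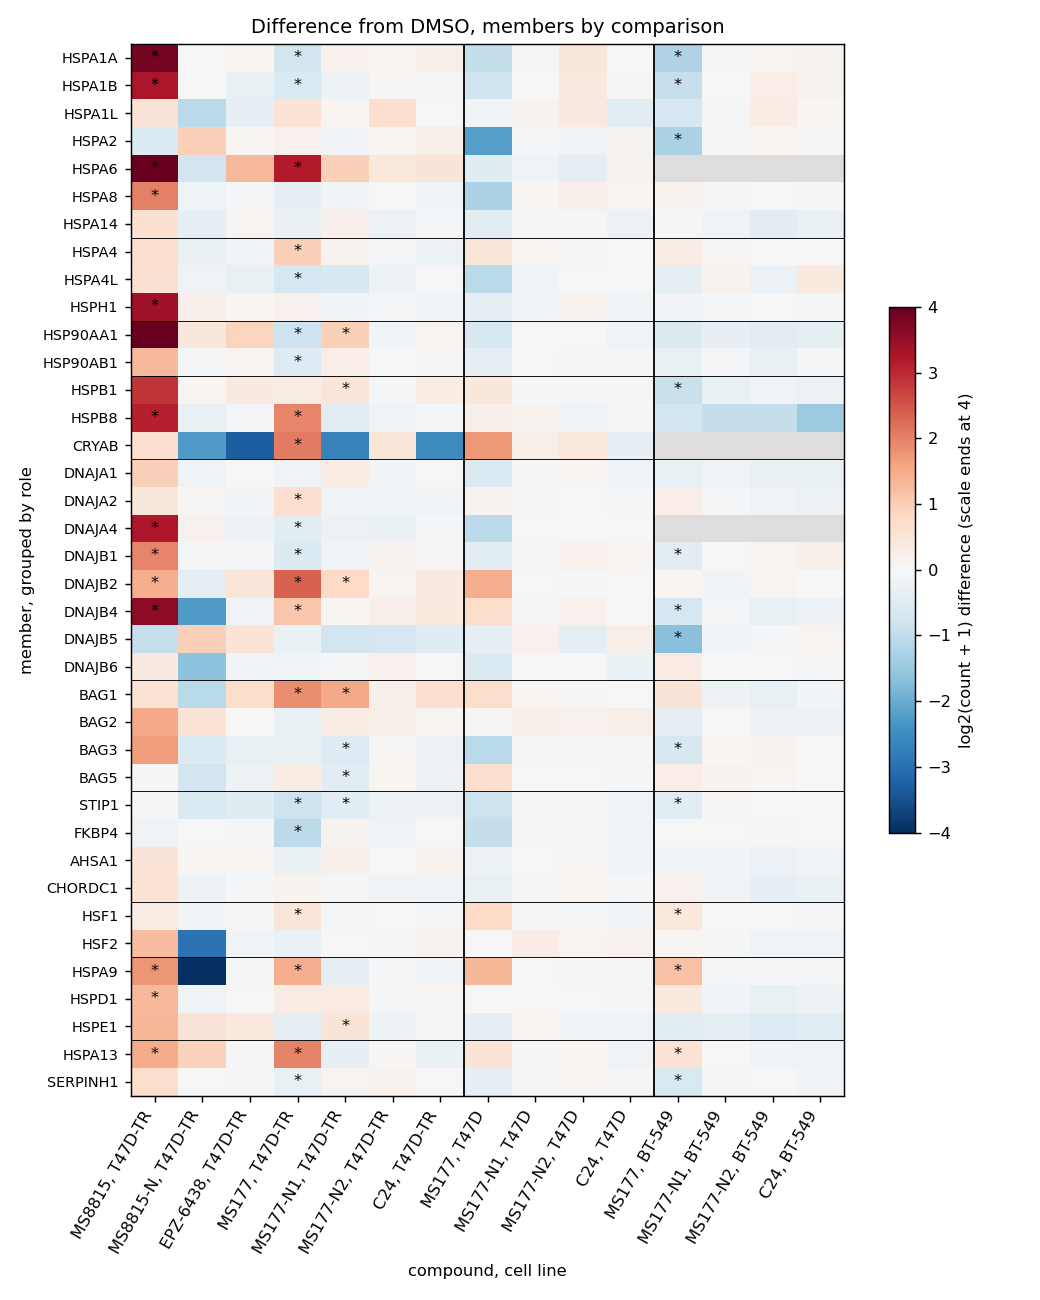
Difference from DMSO in log2(normalized count + 1) for the 38 members (rows, grouped by role) in 15 comparisons (columns), with the colour scale ending at 4 in either direction, grey where a gene was not in the table, and a star where limma passed on the deposited values. The MS8815 column of T47D-TR is red in most rows, the MS177 columns mix red and blue, and the isolated dark blue cells of MS8815-N come with 1 library whose genes often lay at the lowest value.

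Genes related to the members were listed by function, with results of these data already known. With MS8815 in T47D-TR, 4 of 10 other known targets of heat shock factors rose and 0 fell (median log2 difference 1.31), led by ZFAND2A at 3.33 (limma adjusted p = 0.0338), which binds the proteasome under stress. Of all genes 3.27% rose and 2.98% fell in this comparison. Of 31 proteasome genes 6 rose and 0 fell (median 1.40), among them PSMD4 at 2.10 (adjusted p = 0.0479), and of 15 endoplasmic reticulum chaperones 5 rose and 0 fell (median 1.49), led by HSPA5, the main HSP70 of that compartment, at 3.78 (adjusted p = 0.0217). Of 14 chaperonin and prefoldin genes 0 passed (median 0.65), and of 26 other chaperones and co-chaperones 1 rose and 1 fell (median 0.27), TTC1 at 1.58 and FKBP5 at -1.32.

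The other heat shock factor targets were split with MS177 in T47D-TR, where 31.1% of all genes rose and 31.4% fell, 3 higher and 3 lower of 9 tested (median 0.12), with IER5 at 1.20, ZFAND2A at 1.14, UBB at -0.93 and CACYBP at -0.83 (limma adjusted p = 9.02e-05, 6.01e-05, 0.00307 and 0.000467). Endoplasmic reticulum chaperones rose in 10 and fell in 2 of 15 cases (median 0.74), with HSPA5 at 2.98 (limma adjusted p = 1.23e-05), and proteasome genes rose in 14 and fell in 3 of 31 (median 0.27). Of the chaperonin and prefoldin genes 4 rose and 0 fell of 14 (median 0.20), and of the other chaperones and co-chaperones 6 rose and 7 fell of 26 (median -0.03). Counting both directions, the heat shock factor targets and the proteasome genes lay near the 62.5% of all genes that changed, and the chaperonin and other chaperone lists lay below it. In BT-549 the endoplasmic reticulum list was split, 3 higher and 4 lower of 15, where 27.3% of all genes changed (12.9% rising and 14.4% falling), with HSPA5 at 1.73 and MANF at -0.90 (limma adjusted p = 0.00294 and 0.019).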

How the data were processed

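The authors deposited 15 tables of log2 values, each holding 1 compound beside the matching DMSO libraries. The tools that the authors used were RSEM and DESeq, without versions, with the build hg38, per the submitters' processing notes. The deposited log2 values were taken to be variance-stabilized, size-factor-scaled counts, made table by table, which is an assumption for T47D-TR. The lowest value of a table, a count of 0, was used to undo the transform. Of the values, 100% then came out as whole reads in T47D and BT-549 (within 0.05, up to 1000 reads) and 8.17 to 16.3% in T47D-TR.

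Each compound was tested against DMSO with limma (version 3.58.1, R 4.3.3, mean trend, robust) on the deposited log2 values, for genes more than 1 unit above the lowest value in at least 2 libraries. Comparisons between compounds and between responses used limma on log2(normalized count + 1), for genes that reached 10 normalized counts in 2 or more libraries, with tables joined through their shared DMSO libraries, gene by gene in T47D-TR. P-values were two-sided and adjusted by Benjamini-Hochberg over all tested genes at 0.05, with 95% intervals. MS177-N1 in T47D entered with 1 library, assumed to vary as the others do. Members, lists and named genes were chosen with earlier results of these data known. The genes named always were HSPA1A, HSPA1B, HSPA6, HSPA8, HSP90AA1, HSP90AB1, HSPH1, HSPB1, DNAJB1, BAG3 and HSF1, with the 5 largest past the threshold in each comparison with DMSO, the 8 largest between the responses and up to 4 per list; other members are given so that all are accounted for. Alternatives changed the scale, filter, pseudocount, centring, samples in the fit and replicate block, and left out single libraries. The test was run on simulated data with known changes: with each gene's own residual spread it missed most of the smaller changes in the MS8815 table, and with moderated spread it recovered most of the larger ones.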

Additional observations from a re-analysis of the deposited data

Results flagged for a closer look

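The response to MS177 differed between T47D-TR and BT-549, by limma's test of the difference itself, for 13 of 35 members. Over all 12887 genes tested 30.5% differed, 14.2% higher and 16.3% lower in T47D-TR. On log2(normalized count + 1), the response was higher in T47D-TR for HSPB8 (2.71), DNAJB2 (2.28), DNAJB4 (1.81), HSPA2 (1.44), DNAJB5 (1.43), HSPA13 (1.41), BAG1 (1.33), HSPB1 (1.18), HSPA4 (0.68) and DNAJA2 (0.43). It was lower for FKBP4 (-1.05), DNAJB6 (-0.50) and HSPA8 (-0.48). Of these, HSPB8 was at 11.6 and 3.12 normalized counts in the DMSO libraries of BT-549 and 3.74 and 2.90 with MS177, near the bottom of the table, and at 903 and 873 and 3582 and 3352 in T47D-TR. HSPA2 and DNAJB5 lay below the filter of the T47D-TR table, where HSPA2 was at 33.0 and 41.9 and 44.9 and 38.8 and DNAJB5 at 48.6 and 44.4 and 35.5 and 42.4.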

How the results depend on the processing

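No value of a called member reversed its direction in the 2467 alternative values computed for 232 calls, of which 1922 stayed past the threshold and 545 did not. Where groups do not overlap, leaving out 1 library cannot reverse a direction, and the other alternatives reused the same libraries. The absence of reversals was therefore largely fixed in advance. The number of members called moved by more than 1.5 times as follows. With all libraries of a line in 1 fit, MS8815 against DMSO went from 13 to 2, MS177 in T47D from 0 to 10 and MS177-N1 in T47D-TR from 8 to 0; the last went to 4 on log2 of the normalized counts and to 3 with no filter. With the compared libraries and their DMSO alone, MS177 in T47D against MS177-N1 went from 4 to 0, against MS177-N2 from 10 to 4 and against C24 from 9 to 5, MS8815 against MS8815-N from 2 to 0 and against EPZ-6438 from 4 to 14. A pseudocount of 10 gave 7 for MS8815 against MS8815-N, and median centring gave 2 for MS8815 against EPZ-6438. The causes were not tested.

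Replicate numbers are shared by the groups of a line, but the labels do not say that a number marks a batch. Deviations of same-numbered libraries correlated between -0.725 and 0.734 over genes. With the replicate block MS177 in BT-549 had 7 calls in place of 13, MS177 in T47D 2 in place of 0, MS177-N1 in BT-549 5 in place of 0, MS177-N2 in T47D 2 in place of 0, MS177 against MS177-N2 in T47D 4 in place of 10, MS8815 against MS8815-N 1 in place of 2, and the MS177 response between lines 7 in place of 13. Other counts of members with the block stayed within 1.5 times. No paired analysis was possible for the 30 h comparisons with DMSO, the MS8815 response against the MS177 response, and MS177-N1 in T47D, because the groups share fewer than 2 numbers.

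Leaving out 1 library gave these ranges of members called. Against DMSO they were 7 to 31 for MS8815, 0 to 20 for MS8815-N, 0 to 11 for EPZ-6438, 14 to 22 for MS177 in T47D-TR, 5 to 11 in BT-549 and 0 to 27 in T47D, 1 to 7 for MS177-N1 in T47D-TR, 0 to 0 in BT-549, 0 to 6 for MS177-N2 in T47D, 0 to 1 in BT-549, 0 to 0 in T47D-TR, and for C24 0 to 6 in T47D, 0 to 1 in BT-549 and 0 to 1 in T47D-TR. Between compounds they were 0 to 27 for MS8815 against MS8815-N and 0 to 14 against EPZ-6438. For MS177 in T47D they were 0 to 27 against MS177-N1, 0 to 31 against MS177-N2 and 0 to 31 against C24, in T47D-TR 16 to 21, 14 to 21 and 14 to 20, and in BT-549 11 to 16, 11 to 18 and 10 to 16. Between responses they were 6 to 28 for MS8815 against MS177 and 7 to 10 for MS177 between lines. With 1 library left in a group, it was assumed to vary as the others do. The number of all genes called changed in these fits too. The ranges therefore describe the dependence on single libraries and are no result about the members. The depth of T47D-TR libraries is unknown, so no limit from counting can be given there.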
